A study of Mus musculus with 3 samples.

Results

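The exomes of a pair of T cell populations, E6.43 and E15.10, each grown in a mouse from 1 hematopoietic stem cell (HSC), were compared gene by gene and SNP by SNP. Members of the comparison were the autosomal genes with at least 50 allelic read counts in both libraries, which left 19038 of 28403 listed autosomal genes and of 30212 listed genes in all. The donors of the HSCs were female C57BL/6 x CAST/EiJ F1 mice. From that cross, a cell is expected to carry 1 maternal C57BL/6 (B6) and 1 paternal CAST/EiJ (CAST) copy of each autosome. The E6.43 library came from an HSC of donor animal 6 placed in recipient animal 6.43, and the E15.10 library from an HSC of donor animal 15 placed in recipient animal 15.10. Recipients were sublethally irradiated females that differed from the donors in the Ly5 surface marker, and donor cells were told apart by that marker. Both T cell samples were thymic CD4+CD8- cells, with 250000 cells sorted from E6.43 and 177000 cells from E15.10. The series holds 1 further library, E6.2, made from 58000 B220+IgM+ B cells of recipient animal 6.2, which had received 50 HSCs of donor animal 6, and its values stand beside those of named genes. Each T clone was a single clone with 1 library, so donor animal, clone, recipient and library cannot be told apart, and no test between the clones was possible.

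An F1 hybrid between distant strains lets reads of the maternal and the paternal chromosome be told apart at SNPs. Loss of heterozygosity (LOH) leaves only 1 parental allele in a cell, through deletion, mitotic recombination or loss of a chromosome, and a change carried by a stem cell is passed to all its descendants. T and B cells also delete DNA as a normal step: V(D)J recombination joins variable, diversity and joining segments of the antigen receptor loci and removes what lies between them. The first measure used below is allelic imbalance (AI), the share of allelic counts of a gene or SNP that carry the B6 allele. An AI below 0.25 or above 0.75 is the range in which the study looked for LOH, and an AI between 0.4 and 0.6 is called balanced here. The other measure is the share of a library's autosomal allelic counts that fall in a gene, given as counts per 1e+06 autosomal counts (CPM).

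The libraries held 12671054 autosomal allelic counts in E6.43, 10624832 in E15.10 and 18906729 in E6.2. The members took 98.3% and 99.1% of the counts of E6.43 and E15.10, with a median of 438.5 and 335 counts a gene. DNA has no expression markers, so the T cell label was checked on the antigen receptor loci, described further on: the delta diversity segment Trdd1 had 4 counts in E6.43 and 1 in E15.10, against 136 in E6.2. Intervals given below are at 95% and cover counting error only. Neighbouring SNPs share reads, so these intervals are too narrow.

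Windows of 61 bases of the GRCm38 reference show the kind of site behind these values. Each is written 5′ to 3′ on the plus strand, with the B6 base of the SNP in capitals. Cd22, Wdr62 and Ankrd27 lie in the chromosome 7 stretch where E6.43 had almost no B6 counts (chr7:30877807-30877867, chr7:30241426-30241486 and chr7:35603832-35603892). The SNP of each window lies in coding sequence or, for receptor segments, in the segment. Whether the flanking bases run past the end of an exon was not checked.
Cd22: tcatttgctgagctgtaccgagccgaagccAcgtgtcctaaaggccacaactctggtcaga
Wdr62: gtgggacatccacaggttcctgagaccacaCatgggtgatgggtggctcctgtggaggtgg
Ankrd27: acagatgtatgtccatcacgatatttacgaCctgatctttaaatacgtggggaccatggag
At the Cd22 site the B6 base had 0 of 134 counts in E6.43, 121 of 217 in E15.10 and 5 of 177 in E6.2. At the Wdr62 site it had 0 of 102, 113 of 185 and 6 of 177, and at the Ankrd27 site 0 of 205, 146 of 264 and 9 of 278. E15.10 carried both alleles at all these sites and E6.43 carried CAST counts only.

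On chromosome 9 the same gene could hold a SNP with CAST counts only and a SNP with both alleles, and pairs from Crtam and Sorl1 show this. The windows are chr9:40978166-40978226 and chr9:40973543-40973603 for Crtam, and chr9:41984408-41984468 and chr9:41996262-41996322 for Sorl1.
Crtam, site without B6 counts in E6.43: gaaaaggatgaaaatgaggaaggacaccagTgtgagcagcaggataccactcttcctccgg
Crtam, balanced site: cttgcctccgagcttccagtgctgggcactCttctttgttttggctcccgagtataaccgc
Sorl1, site without B6 counts in E6.43: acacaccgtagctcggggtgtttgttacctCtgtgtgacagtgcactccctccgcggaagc
Sorl1, balanced site: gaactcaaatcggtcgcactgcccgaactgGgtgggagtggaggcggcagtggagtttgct
At the first Crtam site the B6 base had 0 of 105 counts in E6.43, 45 of 71 in E15.10 and 2 of 140 in E6.2, and at the second 45 of 100, 31 of 52 and 58 of 130. For Sorl1 the first site had 0 of 110, 58 of 117 and 2 of 133 B6 counts, and the second 26 of 55, 54 of 97 and 80 of 123. The low sites were low in both libraries from donor animal 6, and E15.10 had both alleles at all 4 sites.

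Chromosome 15 is represented by Ift27 (chr15:78165159-78165219), which encodes a subunit of the transport machinery of cilia, and by Apobec3 (chr15:79906920-79906980), a cytidine deaminase that restricts retroviruses.
Ift27: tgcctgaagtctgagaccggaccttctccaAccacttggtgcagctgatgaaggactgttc
Apobec3: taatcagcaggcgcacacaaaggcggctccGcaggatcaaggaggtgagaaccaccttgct
The B6 base of the Ift27 site had 0 of 178 counts in E6.43, 170 of 299 in E15.10 and 2 of 249 in E6.2. That of the Apobec3 site had 0 of 99, 66 of 120 and 3 of 112. The order of the libraries was the same as on chromosomes 7 and 9.

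The next 3 windows are receptor segments whose counts were low in both T clones (chr14:54113438-54113498 for Trdd1, chr13:19190353-19190413 for the gamma variable segment Tcrg-V6 and chr6:41533977-41534037 for the beta joining segment Trbj1-2). The last pair of windows differs in GC content, which the share of counts followed: Themis, a T cell signalling gene (chr10:28863332-28863392, 45.9% GC), and Zbtb7b, the CD4 lineage factor also known as ThPOK (chr3:89381002-89381062, 60.7% GC).
Trdd1: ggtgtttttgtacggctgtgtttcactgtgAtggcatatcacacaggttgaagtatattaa
Tcrg-V6: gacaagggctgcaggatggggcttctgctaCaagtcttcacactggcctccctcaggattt
Trbj1-2: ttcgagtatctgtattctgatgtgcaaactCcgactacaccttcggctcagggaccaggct
Themis: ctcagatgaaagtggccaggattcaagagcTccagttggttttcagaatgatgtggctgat
Zbtb7b: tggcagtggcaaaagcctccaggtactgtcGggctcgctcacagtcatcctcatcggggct
The Themis site had 74 counts in E6.43, 20 in E15.10 and 161 in E6.2, and the Zbtb7b site 94, 224 and 143. The Themis site was the shallower in E15.10 and the Zbtb7b site the deeper, although E15.10 had the fewest counts in all.

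Most genes were biallelic in both T clones. The median AI over the members was 0.539 for E6.43 against 0.538 for E15.10. Balanced genes made up 79.5% and 77.1%. Both clones were balanced at 12594 genes (66.2%) and inside the range of 0.25 to 0.75 at 18144 (95.3%). Outside that range, E6.43 had 313 genes below 0.25 and 332 above 0.75, while E15.10 had 167 below and 417 above. E6.43 had no B6 count at 74 genes and E15.10 at 13. Across genes, which are not independent replicates, the AI of the clones had a Pearson correlation of 0.502.

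The spread between the clones depended on depth. Among 2701 genes whose shallower library had 50 to 99 counts, the median size of the AI difference was 0.0798, and it fell to 0.0272 among 2078 genes with at least 1000 counts in both. The spread, taken from the quartiles, was 1.68 times that of binomial counting in the shallowest class and 2.3 times in the deepest. The step at the count minimum was smooth, with a median size of 0.0949 for 640 genes with 40 to 49 counts in the shallower library and 0.0921 for 595 with 50 to 59.

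An AI difference of at least 0.25 was found at 419 genes, 2.2% of the members. B6 was lower in E6.43 at 295 of them (1.55%) and higher at 124 (0.651%). Chromosome 7 held 124 of the 419 and chromosome 9 held 80, and no other autosome had more than 25. In the shallowest class 154 of 2701 genes differed (5.7%), against 25 of 2078 (1.2%) in the deepest. By type, 291 of 16197 protein-coding genes (1.8%) and 65 of 1181 processed pseudogenes (5.5%) differed. Processed pseudogenes are retrocopies that resemble their parent gene, so reads of parent and copy can be misplaced and their AI is uncertain. The extreme values within the members were a difference of -0.82 at Olfr951 and 0.51 at Gm11338, a pseudogene.

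**Figure D1:**
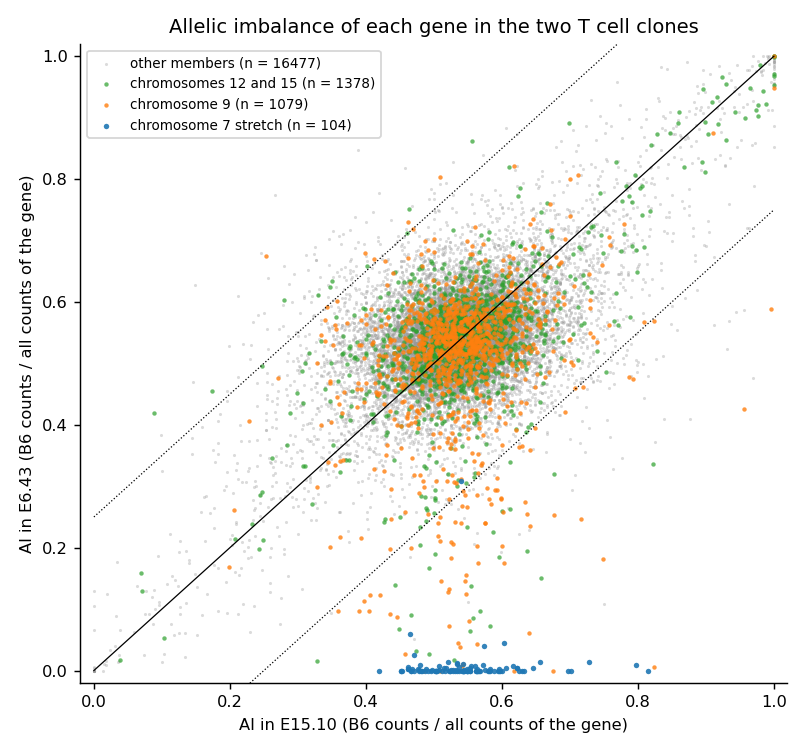
AI of each of the 19038 members in E15.10 (horizontal axis) and E6.43 (vertical axis), coloured by the chromosome 7 stretch (n = 104), chromosome 9 (n = 1079), chromosomes 12 and 15 (n = 1378) and all other members (n = 16477), with the line of equality and dotted lines at a difference of 0.25 either way. The chromosome 7 genes lie along the bottom, at an AI near 0 in E6.43 and around 0.539 in E15.10, and genes of chromosome 9 trail down below the main cloud.

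E6.43 was out of the range of 0.25 to 0.75 and E15.10 balanced at 185 genes, 156 of which were below 0.25. Of the 185, 87 lay in the chromosome 7 stretch and 39 on chromosome 9. The reverse, E15.10 out of range and E6.43 balanced, was found at 81 genes, of which 63 were above 0.75 and 18 below 0.25. None of the 81 lay in the chromosome 7 stretch, and 42 were protein-coding. So the genes called in E6.43 alone were mostly CAST-rich and clustered, and those in E15.10 alone were mostly B6-rich, with 1 of the 81 in a stretch. A further 102 genes were below 0.25 in both clones, 230 above 0.75 in both, and 3 on opposite sides.

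Summed over whole autosomes the clones were close. The AI of an autosome lay between 0.517 and 0.559 in E6.43 and between 0.529 and 0.556 in E15.10. E6.43 minus E15.10 was -0.0241 on chromosome 9 and -0.0187 on chromosome 7, and between -0.0056 and 0.0086 on the other 17 autosomes. Without the stretch described next, chromosome 7 had an AI of 0.542 in E6.43 and 0.537 in E15.10. Among 940 bins of 2 Mb with at least 5 genes, the AI from the summed counts of a bin was lower in E6.43 by 0.1 or more in 13. It was higher by as much in 2. On autosomes other than 7, 9, 12 and 15, all 755 bins lay between -0.129 and 0.135.

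A running median of the difference over 9 neighbouring genes reached 0.25 in size in 13 stretches with 156 genes. The running median was lower in E6.43 in all of them, but the genes inside need not be. The chromosome 9 stretch of Islr alone had an AI of 0.553 in E6.43 against 0.513 in E15.10. That from Mcam to Cbl had 0.4585 and 0.4769. One stretch lay on chromosome 7, 11 on chromosome 9 and 1 on chromosome 12.

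The chromosome 7 stretch ran from 29697646 to 35801325 (6.1 Mb, GRCm38), from Catsperg2 to Zfp507, and held 104 members. E6.43 had 547 B6 counts of 58266 there, an AI of 0.00939 (0.00864 to 0.0102, Wilson), and no B6 count at all in 60 genes. E15.10 had 42502 of 78882, an AI of 0.539 (0.535 to 0.542), and E6.2 had 2795 of 83877, an AI of 0.0333. All but 1 of the 104 genes were out of range in E6.43, and 2 were in E15.10. The edges were sharp: 4930432E11Rik, the member before the stretch, had an AI of 0.543 in E6.43 against 0.520 in E15.10, and Tshz3, the member after it, had 0.461 and 0.467. Both flanking members were chosen for their place.

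Total counts in the stretch were lower in E6.43 but not absent. The stretch held 4598 CPM in E6.43, 7424 in E15.10 and 4436 in E6.2. CAST counts alone made up 4555 CPM in E6.43, 3424 in E15.10 and 4288 in E6.2, so they were higher in the libraries with few B6 counts. The share ratio of E6.43 to E15.10 was 0.619, with a median log2 ratio over genes of -0.73, or -0.48 after correction for GC content. Over the members as a whole the median log2 ratio was -0.01. Exome counts do not separate the copy number from capture here, and whether 1 or 2 CAST copies were present was not tested. The study's methods report a large deletion common to every E6 sample, clonal or polyclonal, without giving its position. Whether that deletion is the stretch described here was not tested.

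Cd22, an inhibitory co-receptor of B cells, had 0 B6 counts of 1757 in E6.43 (AI up to 0.00218), 1649 of 2836 in E15.10 (0.581) and 77 of 2594 in E6.2 (0.0297). All 25 Cd22 SNPs with at least 10 counts in both T libraries were lower in E6.43. Cebpa, a transcription factor of myeloid progenitors, had 0 of 108, 132 of 276 (0.478) and 2 of 161 (0.0124). Sbsn, the best covered of the genes out of range in E6.43 and balanced in E15.10, encodes suprabasin of the epidermis and had 313 of 5299 (0.0591), 3265 of 7013 (0.466) and 543 of 7169 (0.0757). Among the first and last genes, Catsperg2, a gene of the sperm calcium channel complex, had an AI of 0.0106 in E6.43 against 0.543 in E15.10, and Zfp507, a zinc finger gene, 0.00339 and 0.518. Wdr62, a spindle pole protein, had 0.00122 and 0.525, and Ankrd27, a regulator of vesicle traffic, 0.000632 and 0.497. E15.10 was balanced in all of these genes and E6.43 was below 0.25, which largely follows from how the stretch and the genes were picked.

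The members with the largest differences in the stretch were Scgb2b26, a secretoglobin, with an AI of 0.00916 in E6.43, 0.797 in E15.10 and 0.0968 in E6.2, Krtdap, a keratinocyte gene, and Tbcb, a tubulin folding cofactor. Krtdap had 0 B6 counts of 135 in E6.43, 273 of 389 in E15.10 (0.702) and 7 of 205 in E6.2. Tbcb had 1 of 238, 170 of 263 (0.646) and 8 of 403. In these genes E15.10 itself lay above the autosomal median of 0.538.

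The chromosome 9 stretches were short and mixed. The 2 with at least 9 genes ran from Neo1 to Nr2e3, with 12 genes over 1.07 Mb, and from Olfr979 to Scn3b, with 9 genes over 0.291 Mb. The first had an AI of 0.265 in E6.43, 0.564 in E15.10 and 0.274 in E6.2, and the second 0.25, 0.570 and 0.264. A stretch of 5 genes from Nxpe4 to Zbtb16 had 0.145, 0.480 and 0.150. Thus the summed AI of these stretches stayed well above 0 in E6.43, unlike that of chromosome 7.

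Olfr951, an olfactory receptor gene on chromosome 9, had 1 B6 count of 187 in E6.43, 186 of 226 in E15.10 (0.823) and 9 of 262 in E6.2. Its close copies make its counts uncertain. Olfr944 had 0 of 397, 58 of 103 (0.563) and 17 of 633. Nr2e3, a nuclear receptor of photoreceptors, had 6 of 139 (0.0432), 116 of 206 (0.563) and 34 of 342. Myo9a, an unconventional myosin, had 103 of 567 (0.182), 134 of 179 (0.749) and 220 of 1051 (0.209). Bbs4, which acts in the trafficking complex of cilia, had 16 of 260 (0.0615), 64 of 100 (0.640) and 16 of 363. E6.43 and E6.2 lay on the CAST side in all 5, and E15.10 on the B6 side. For E6.43 and E15.10 this largely follows from the choice of genes by their difference.

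Genes of T cell function lay in or near these stretches. Thy1, a surface glycoprotein of T cells, had 5 B6 counts of 187 in E6.43 (0.0267, 0.0115 to 0.0611), 82 of 179 in E15.10 (0.458) and 13 of 209 in E6.2 (0.0622). Cd3g, which encodes a CD3 chain of the T cell receptor complex, had 58 of 241 (0.241), 89 of 176 (0.506) and 104 of 427 (0.244). Its neighbours did not share this: Cd3d had an AI of 0.542 in E6.43 against 0.514 in E15.10, and Cd3e had 0.409 and 0.441. For Cd3d the difference was 0.0271 (-0.0209 to 0.0749, Newcombe) and for Cd3e -0.0317 (-0.138 to 0.0746).

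Crtam, an adhesion molecule of activated T and NK cells, had 200 B6 counts of 740 in E6.43 (0.270), 348 of 596 in E15.10 (0.584) and 259 of 1113 in E6.2 (0.233). Zbtb16, the transcription factor PLZF, had 119 of 494 (0.241), 460 of 799 (0.576) and 193 of 736 (0.262). Sorl1, a sorting receptor, had 157 of 896 (0.175), 627 of 1110 (0.565) and 335 of 1436 (0.233). Pml, the nuclear body gene on the same chromosome, chosen after its values were seen, had 146 of 1001 (0.146), 713 of 1305 (0.546) and 255 of 1347 (0.189). In all 4 genes E15.10 was balanced, and both donor 6 libraries lay between 0.146 and 0.270. For E6.43 and E15.10 this largely follows from how the stretches and genes were picked.

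**Figure D2:**
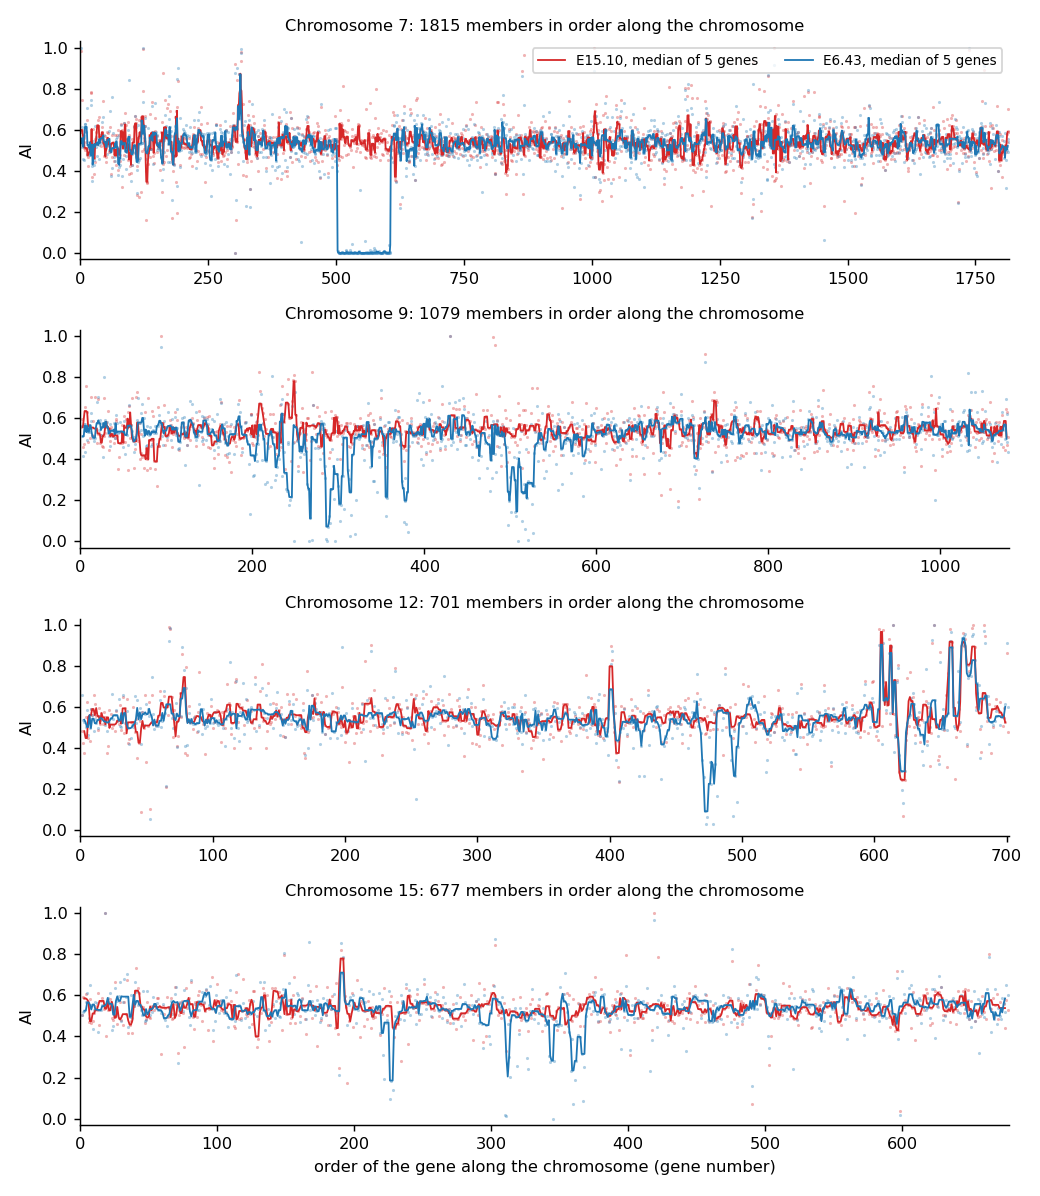
AI of each member in order along chromosomes 7 (1815 members), 9 (1079), 12 (701) and 15 (677) in E6.43 and E15.10, points being genes and lines the median of 5 neighbouring genes. E6.43 falls to an AI near 0 over 1 unbroken block of chromosome 7 and dips in several separate places on chromosomes 9, 12 and 15, where E15.10 stays near 0.54.

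Single SNPs gave a sharper picture than genes. Of 139066 autosomal SNPs with at least 20 counts in both T clones, 126786 (91.2%) had an AI between 0.25 and 0.75 in both. At 1190 SNPs in 318 genes E6.43 had no B6 count while E15.10 lay between 0.25 and 0.75. The reverse, no B6 count in E15.10 with E6.43 inside that range, was found at 0 SNPs. CAST counts were missing in E6.43 alone at 3 SNPs and in E15.10 alone at 10. Of the 1190 SNPs, 650 lay on chromosome 7, 336 on chromosome 9, 76 on chromosome 12, 121 on chromosome 15 and 7 on all other autosomes together. At 1177 of the 1186 with at least 20 counts in E6.2, that library had an AI under 0.1 too.

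Grouping these SNPs where gaps were under 5 Mb gave 5 intervals with at least 20 of them, a rule chosen after seeing the data. On chromosome 7 (29697646 to 35795310), 736 of 740 SNPs had an AI under 0.1 in E6.43. On chromosome 9 from 35047364 to 48901001, 232 of 1128 SNPs were under 0.1 and 857 lay between 0.25 and 0.75. The other chromosome 9 interval, 56127565 to 66713763, had 162 of 808 low and 625 in that range. Chromosome 12 from 98234285 to 104871099 had 106 of 776 low and 623 in range, and chromosome 15 from 74705742 to 82393813 had 141 of 1386 low and 1192 in range. Outside chromosome 7, SNPs of both kinds lay side by side in the same genes: in the first chromosome 9 interval 69 of the 83 genes with a low SNP also had a SNP in range, and on chromosome 15 it was 41 of 45.

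Low SNPs were picked by an AI under 0.1 in E6.43, in intervals built from SNPs with both alleles in E15.10. Their values in E6.43 and E15.10 therefore largely follow from that choice, and only those of E6.2 do not. B6 made up between 0.22% and 0.564% of their counts in E6.43, between 50.0% and 55.7% in E15.10 and between 2.37% and 3.69% in E6.2. At the remaining SNPs of the 4 intervals outside chromosome 7, B6 made up 53.5% to 56.0% in E6.43 and 54.1% to 56.9% in E15.10. In E6.2, low SNPs coincided with those of E6.43: 229 of 232, 158 of 161, 99 of 106 and 137 of 140 low SNPs with enough counts were also under 0.1 there. E6.2 and E6.43 came from the same donor animal and E15.10 from another, and the part of the donor in these SNPs was not tested.

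**Figure D3:**
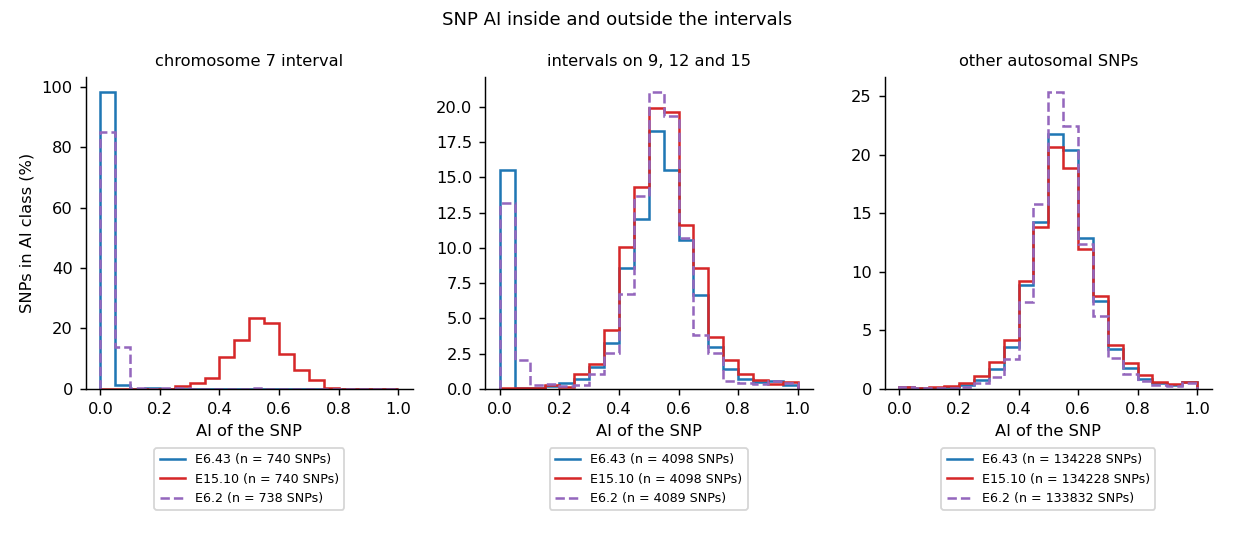
Share of SNPs (vertical axis, %) in each AI class of 0.05 (horizontal axis) for E6.43, E15.10 and E6.2, in the chromosome 7 interval (740 SNPs), the intervals on 9, 12 and 15 (4098) and all other autosomal SNPs (134228). On chromosome 7 nearly all SNPs of E6.43 and E6.2 are at the left edge, whereas in the other intervals a minority is at the left edge and the rest are centred near 0.54.

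On chromosome 12 low sites lay in the serpin cluster, which encodes protease inhibitors made by the liver, and in other genes. The stretch from Serpina1d to B430119L08Rik had an AI of 0.263 in E6.43, 0.511 in E15.10 and 0.294 in E6.2. Serpina1d had 45 B6 counts of 1446 (0.0311), 876 of 1852 (0.473) and 160 of 2197 (0.0728). Of 27 Serpina members, 8 were lower in E6.43 by at least 0.25 and none was higher, beside 1.55% of all members. Serpins in this cluster are close copies of each other, and reads may be misplaced among them.

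On chromosome 15, Ift27 had 8 B6 counts of 463 in E6.43 (0.0173, 0.00878 to 0.0337), 429 of 809 in E15.10 (0.530) and 11 of 651 in E6.2. Apobec3 had 137 of 1892 (0.0724, 0.0616 to 0.085), 1772 of 3043 (0.582) and 216 of 2826 (0.0764). Cyp2d11, a cytochrome P450 of the liver, had 708 of 3035 (0.233), 1886 of 3437 (0.549) and 982 of 4106. Csf2rb, the common beta chain of the receptors for IL-3, IL-5 and GM-CSF, named after its values were seen, had 65 of 317 (0.205), 226 of 471 (0.480) and 134 of 586 (0.229). In all 4 genes E6.43 was below 0.25 and E15.10 was balanced, which largely follows from how the genes were picked. E6.2, which played no part in the naming rules, was below 0.25 in all 4 too.

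The genes with the largest differences in the other direction, B6 higher in E6.43, lay on 8 chromosomes and in none of the stretches. Cldnd1, a claudin domain gene, had 236 B6 counts of 447 in E6.43 (0.528), 66 of 331 in E15.10 (0.199) and 422 of 741 in E6.2 (0.570). Mrgprb8, a Mas-related receptor, had 270 of 429 (0.629), 45 of 157 (0.287) and 340 of 655 (0.519). Ly6e, a surface protein of the Ly6 family, had 189 of 313 (0.604), 70 of 250 (0.280) and 174 of 278 (0.626). Fam168b had 150 of 230 (0.652), 51 of 162 (0.315) and 150 of 368 (0.408). In the first 3 of these E6.2 was nearer to E6.43, and in Fam168b it was nearer to E15.10. The other 6 of the 10, Stpg1, Vopp1, Setmar, Rad51ap1, Dct and Oip5, differed by 0.297, 0.291, 0.283, 0.280, 0.275 and 0.267.

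Genes out of range in E15.10 and balanced in E6.43 were led by Smok2a, a sperm motility kinase gene on chromosome 17. It had 770 B6 counts of 1606 in E6.43 (0.479), 3131 of 3844 in E15.10 (0.815) and 1277 of 2605 in E6.2 (0.490). Its share was 127 CPM in E6.43, 362 in E15.10 and 138 in E6.2, so E15.10 had both a larger share of counts and a larger part of B6. Vmn2r-ps159, a vomeronasal receptor locus, had an AI of 0.439 in E6.43, 0.196 in E15.10 and 0.363 in E6.2. Among olfactory receptor genes, Olfr617 had 0.558, 0.755 and 0.502, Olfr547 had 0.499, 0.808 and 0.578, Olfr25 had 0.475, 0.793 and 0.464, and Olfr38 had 0.567, 0.755 and 0.512. All 6 belong to families of close copies, and reads may be misplaced among them.

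E6.2 was nearer to E6.43 than to E15.10 at 10598 of 19026 members (55.7%) in which it had at least 50 counts. Of the 295 genes with B6 lower in E6.43 it was nearer at 265, among them 103 of 103 in the chromosome 7 stretch, 72 of 75 on chromosome 9 and 25 of 27 on chromosomes 12 and 15. Of the 123 with B6 higher in E6.43 it was nearer at 76. Outside the stretches and chromosomes 9, 12 and 15 it was nearer at 132 of 198 differing genes (66.7%), 63 of which were pseudogenes. E15.10 was also the shallower library there, with a median of 97.5 counts against 172.5.

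Some genes were out of range on the same side in both T clones. Duxf3, a double homeobox gene of a repeated array, had an AI of 0.0921 in E6.43, 0.0759 in E15.10 and 0.0913 in E6.2. Sfi1, a centrosome gene with duplicated copies, had 0.0615, 0.126 and 0.0538. Tgtp2, an interferon-induced GTPase gene, had 0.996, 1 and 0.999, and Skint6, a gene of the Skint family, 0.971, 0.905 and 0.957. These examples were chosen after their values were seen.

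The share of counts differed between the clones far more widely than the AI. A share at least 2-fold higher in E6.43 was found at 2893 genes (15.2%) and at least 2-fold lower at 1087 (5.71%). The difference followed GC content around the SNPs, with a Pearson correlation of -0.706 and a Spearman correlation of -0.737 across genes, which share the libraries. In 20 bins of about 952 genes, the median log2 ratio of E6.43 over E15.10 went from 1.16 at a median GC of 38.5% to -0.88 at 62.1%. After each bin was set to a median of 0, 1162 genes were 2-fold higher and 472 lower, and the SD of the log2 ratio fell from 0.81 to 0.57. The median AI difference in the bins stayed within 0.005 of 0. E6.2 lay close to E6.43: the lowest GC bin took 3.44% of member counts in E6.43, 1.49% in E15.10 and 3.73% in E6.2.

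The order of the autosomes went with GC as well. The share of an autosome was between 0.853 times (chromosome 11) and 1.34 times (chromosome 18) as large in E6.43 as in E15.10. Median log2 ratios over genes ran from -0.31 on chromosome 17 to 0.35 on chromosome 13. After GC correction they ran from -0.08 to 0.16, the latter on chromosome 6. Over 19 autosomes, which share the same libraries, the median log2 ratio and the median GC content had a Pearson correlation of -0.942 and a Spearman correlation of -0.961.

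Chemosensory gene families and Skint genes had the larger shares in E6.43. Olfactory receptors (Olfr), which detect odorants in the nose, had 667 members with a median log2 ratio of 1.27, 442 of them at least 2-fold higher in E6.43 and 0 lower, beside 15.2% and 5.71% of all members. The median was 1.68 for type 2 vomeronasal receptors (Vmn2r), 1.09 for type 1 (Vmn1r), 1.30 for bitter taste receptors (Tas2r) and 2.11 for Skint genes. With a median GC of 37.5% to 45.5%, these families are AT-rich, and GC correction lowered the Olfr median to 0.66 and the Vmn1r median to 0.28. Protocadherins (Pcdh), cell adhesion genes of neurons, had a median of 1.41 before and 1.54 after the correction at a GC of 52.3%. Among GC-rich families, homeobox clusters (Hox) and keratins (Krt) lay the other way, with -0.80 and -0.49, which became -0.11 and -0.05. Histones (Hist), at a GC of 56.9%, did not, with a median of 0.03 before and 0.64 after the correction. The AI of these families did not go with the share: the median AI difference was -0.0037 for Olfr, -0.0071 for Vmn2r and -0.0089 for Pcdh.

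**Figure D4:**
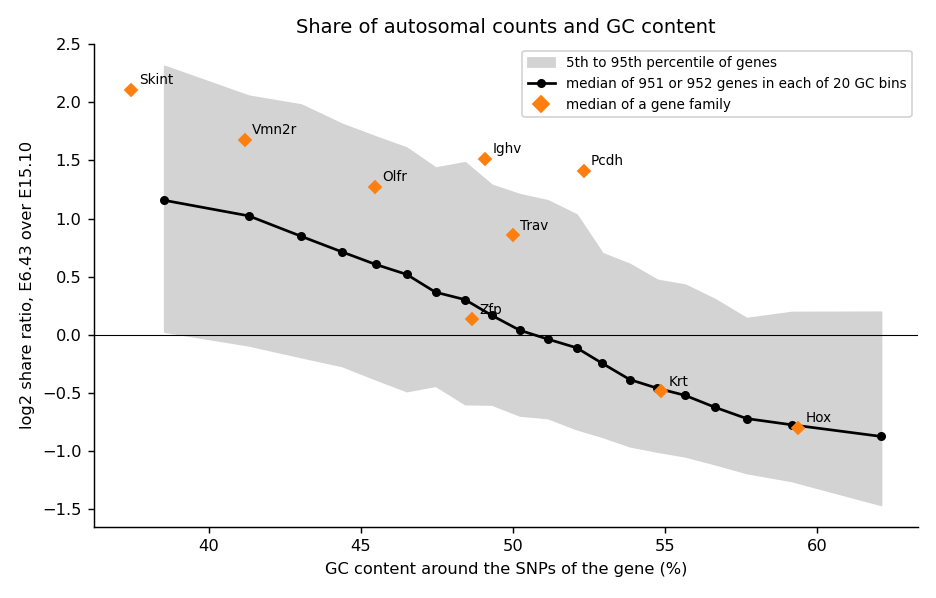
Median log2 ratio of the share of counts, E6.43 over E15.10, in 20 bins of members by GC content around their SNPs (black points, with the 5th to 95th percentile of genes in grey) and the medians of named gene families (diamonds). The bin medians fall from 1.16 at 38.5% GC to -0.88 at 62.1%, and Pcdh at 1.41 and Ighv at 1.51 lie well above bins of like GC.

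By gene, the highest ratio was that of Cdh19, a cadherin, with 91.9 CPM in E6.43, 10.4 in E15.10 and 103 in E6.2 (log2 ratio 3.15, or 2.13 after GC correction). Vmn2r68 followed with 205, 26.9 and 229 (2.93), Vmn2r70 with 110, 16.1 and 145 (2.77), Olfr919 with 66.5, 10.1 and 64.8 (2.72), and Olfr924 and Vmn2r80 with 2.63 each. The lowest was Atp5d, a subunit of ATP synthase, with 9.08, 34.6 and 12.9 (-1.93), then Ager, the receptor for advanced glycation end products, with 13.5, 50.3 and 14.9 (-1.90). Jrk, Krtdap, Pop7 and Lyl1 had log2 ratios of -1.83, -1.78, -1.74 and -1.71. In all of these E6.2 was near E6.43, so E15.10 was the library that stood apart. Cdh19 had an AI of 0.524 in E6.43 against 0.491 in E15.10, and Atp5d 0.626 against 0.652. The AI was further apart in Jrk (0.195 against 0.637), Krtdap (0 against 0.702), Vmn2r70 (0.525 against 0.725) and Vmn2r68 (0.538 against 0.664).

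The number of genes with a far higher share in E6.43 also went with exon structure. Among protein-coding members with 1 coding exon, 312 of 1875 (16.6%) were still at least 2-fold higher in E6.43 after GC correction, against 157 of 3977 (3.95%) with 2 to 5 coding exons. Without chemosensory receptors the former was 147 of 1170 (12.6%). Over all members it was 1162 of 19038. The lower side showed no such excess after the correction. At least 2-fold lower were 57 of 1875 genes with 1 coding exon and 119 of 3977 with 2 to 5. The typical gene moved less: the GC-corrected median log2 ratio was 0.27 with 1 coding exon and -0.02 with 2 to 5. Without chemosensory receptors the median with 1 coding exon was 0.007. Genes with an AI difference of at least 0.25 made up 2.56% of those with 1 coding exon and 2.59% of those with 2 to 5.

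Some segments of the antigen receptor loci that lie in DNA removed during T cell development had low counts in both clones. Trdd1 lies between the alpha variable and joining segments, and its share was 0.0439 times that of the B cells in E6.43 (0.0162 to 0.119) and 0.0131 times in E15.10 (0.00183 to 0.0936), from the 4 and 1 counts given above (0.0461 and 0.0226 times after GC correction). Trdv segments were at 0.37 and 0.35 times the B cell share, or 0.38 and 0.47 after GC correction. In E15.10 the Trdv share was near that of immunoglobulin variable segments, which T cells leave in place. These were at 0.35 (Igkv) and 0.43 (Ighv) in E15.10, or 0.49 each after GC correction. Trdv1 had 189 counts in E6.43, 172 in E15.10 and 853 in E6.2, and Trdv4 had 60, 46 and 394. Beta joining segments (Trbj) were at 0.36 and 0.21, with Trbj1-2 at 28, 12 and 338 counts. Tcrg-V6 had 20, 14 and 357 counts, or 0.084 and 0.070 times the B cell share. Its class was not low as a whole: the 5 listed Tcrg-V segments together were at 0.78 and 0.48, or 0.82 and 0.83 after GC correction. Gamma constant genes (Tcrg-C) were at 0.88 and 0.52, or 0.94 and 1.08 after GC correction. In the other direction, the heavy chain diversity segments (Ighd), deleted in B cells, had 218 counts in E6.43, 125 in E15.10 and 61 in E6.2. That was 5.33 and 3.65 times the B cell share, and for heavy joining segments (Ighj) it was 2.88 and 2.98 times.

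Between the T clones the receptor loci differed in share. The 49 members of the alpha and delta locus held 1.67 times the share in E6.43 that they held in E15.10 (1.64 to 1.71), or 1.56 times after GC correction. Relative to the B cells, Trav segments were at 0.59 in E6.43 and 0.34 in E15.10, Traj segments at 0.49 and 0.25, and Trbv segments at 0.57 and 0.24. Immunoglobulin variable segments, which T cells leave in place, were lower in E15.10 too, Ighv at 1.15 and 0.43 times the B cell share and Igkv at 0.95 and 0.35. The log2 ratio of E6.43 over E15.10 had a median of 0.86 over 45 Trav members, 1.51 over 79 Ighv members and 1.46 over 72 Igkv members. After GC correction the medians were 0.77 for Trav, 1.26 for Ighv and 0.97 for Igkv. What part rearrangement had in the difference between the clones was not tested.

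**Figure D5:**
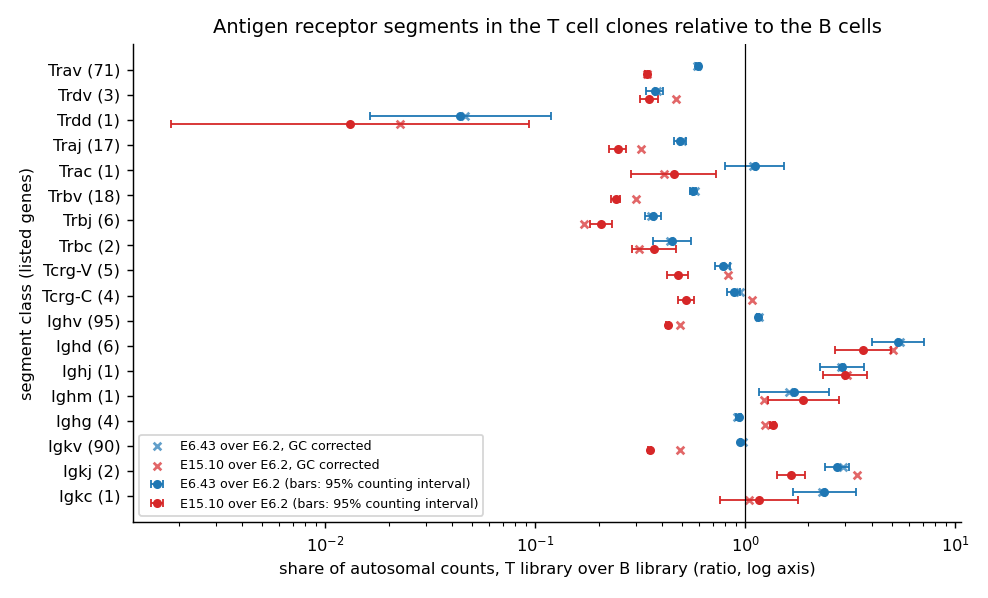
Share of autosomal counts of each class of antigen receptor segment (rows, with the number of listed genes) in E6.43 and E15.10 relative to E6.2, on a log axis, with 95% counting intervals as bars and values after GC correction as crosses. Before GC correction, Trdd lies at 0.0439 and 0.0131, Trdv and Trbj lie below 0.4 in both clones, Ighd and Ighj lie above 2.5, and variable segments are lower in E15.10 than in E6.43.

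Lists of genes that matter for these cells were mostly balanced. Of 146 members of the lists together, 108 were balanced in both clones. Among 32 genes of T cell receptor signalling and the T cell surface, Thy1 and Cd3g were lower in E6.43 and 23 were balanced in both. CD4 and CD8 chains were not among those differing: Cd4 had an AI of 0.547 in E6.43 against 0.593 in E15.10, and Cd8a had 251 of 442 counts from B6 in E6.43 against 167 of 333 in E15.10. Among 20 T cell transcription factors, Runx3, which acts in CD8 T cells, was higher, with 58 B6 counts of 79 in E6.43 (0.734), 56 of 128 in E15.10 (0.438) and 29 of 68 in E6.2. Its low depth gave a difference of 0.297 with an interval of 0.159 to 0.415.

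None of 16 genes of V(D)J recombination and end joining differed by 0.25. The recombinase genes Rag1 and Rag2 had an AI of 0.525 and 0.611 in E6.43 and 0.516 and 0.461 in E15.10. Hmgb2, a cofactor of cleavage, came nearest with 0.438 and 0.674 at 80 and 89 counts. None of 17 genes of homologous recombination and mismatch repair differed by even 0.1. Of 18 stem cell genes Cebpa was lower, and of 18 B cell genes Cd22, both through the chromosome 7 stretch.

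Of 26 genes of blood cancer and clonal blood growth, 18 were balanced in both clones. Cdkn2a, the locus of the tumour suppressors p16 and p19, had 149 B6 counts of 298 in E6.43 (0.5), 249 of 347 in E15.10 (0.718) and 201 of 399 in E6.2 (0.504). Jak2, a cytokine receptor kinase, had 228 of 405 (0.563), 108 of 146 (0.740) and 375 of 647 (0.580). Npm1, a nucleolar protein gene with many pseudogenes, had 54 of 234 (0.231), 81 of 201 (0.403) and 102 of 360 (0.283). These 3 did not reach a difference of 0.25, and in Cdkn2a and Jak2 E15.10 was the library off balance.

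Some list genes had shares that went with GC content. The lists themselves did not line up by GC. The T cell receptor signalling list and the B cell list both had a median GC of 52.8%. Their median log2 ratios were 0.02 and -0.32. Ptprc, which encodes the Ly5 (CD45) antigen used to tell donor from recipient cells, had 94.9 CPM in E6.43, 18.8 in E15.10 and 114 in E6.2, at a GC of 39.2%. Its AI was 0.774, 0.85 and 0.741. Themis had 89.8, 23.1 and 102, and Atm, the damage response kinase, had 198, 60.5 and 211. Zbtb7b had 32.4, 82.0 and 28.8 at a GC of 61.4%, and Jak3, a cytokine receptor kinase, had 126, 293 and 106. E15.10 was lower in Ptprc, Themis and Atm and higher in Zbtb7b and Jak3, and E6.43 and E6.2 lay together.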

How the data were processed

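DNA of sorted cells was captured with the Agilent SureSelect Mouse All ExonV6 kit and sequenced by the authors. The submitters' processing notes name cutadapt 1.14, Trim Galore, STAR 2.5.4a, SAMtools and GATK, with build GRCm38 (mm10). The deposited per-library files hold B6 and CAST read counts, raw and whole, for 452304 SNPs and 30212 genes. Gene counts equalled the sum of their SNPs in all 30212 genes. A deposited table of the whole series holds AI as a fraction with its total counts for genes that the authors filtered, and was used as an alternative. The same table holds the authors' interval for AI and the p-value and call of their binomial test for each gene, deposited per library, which were not used. The per-SNP lists of positions and allele counts were used as deposited by the authors. By the methods, sequencing was paired-end and alleles were counted with the ASEReadCounter* pipeline, and genes of low count or out of the AI range were set aside. No column without a sample was used (0).

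AI was B6 counts divided by all counts. Members had at least 50 counts in both T libraries, and 18711 of them were in the GENCODE annotation of GRCm38, which gave symbols and gene types. Sequences were read from the RefSeq copy of GRCm38. Share was counts per 1e+06 autosomal counts. GC content was read 150 bp to each side of a member's SNPs, and log2 ratios were centred in 20 bins. AI has Wilson intervals and AI differences Newcombe intervals, both at 95%. With 1 library a side no p-value was computed. The calculations were tested on simulated data and run with Python 3.11.15, numpy 2.4.6, pandas 2.3.3 and scipy 1.17.1. Groups came from the sample titles.

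The comparison and gene lists were chosen with earlier results of these data known. Named genes were, by rule, the 10 protein-coding genes with the largest AI difference each way (at least 100 counts in both, at most 3 of a stretch), the 6 best covered genes out of range in 1 clone and balanced in the other, the 6 highest and 6 lowest share ratios, genes at the ends of stretches and the best covered ones within, and list members. Pml, Csf2rb, the flanking genes of the chromosome 7 stretch and genes out of range in both clones were chosen after their values were seen. Alternatives covered the count minimum, SNP spacing, gene type, centring, GC correction and the length of the running median. A result of the list of blood cancer genes is not reported here.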

Additional observations from a re-analysis of the deposited data

Results flagged for a closer look

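The labels give all mice as female, yet counts were present among the 4 genes listed on the Y chromosome, data that the comparison of autosomes did not use. E6.43 had 3557 such counts, E15.10 had 1175 and E6.2 had 3997. Nearly all fell in Mid1-ps1, a pseudogene of the X-linked gene Mid1, with 3527, 1149 and 3957. The cause was not tested.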

How the results depend on the processing

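Of 42 alternatives, 24 left a result within its counting interval or within 1.5 times the main count and 18 moved it. The 419 genes differing by at least 0.25 became 939 at a count minimum of 10, 265 at 100 and 255 with SNPs at least 300 bp apart. Without chromosomes 7, 9, 12 and 15, an alternative chosen after seeing the data, they became 178, and the 185 genes out of range in E6.43 alone became 31. The 81 genes out of range in E15.10 alone became 219 at a minimum of 10, 47 at 100, 37 with spaced SNPs, 42 with protein-coding genes only, 151 with the median over SNPs and 49 in the series table. GC correction took the 3980 genes with a 2-fold difference in share to 1634. The AI of E6.43 over the chromosome 7 stretch was 0.00623 with spaced SNPs and 0 as the median over genes. The ratio of the alpha and delta locus was 1.56 after GC correction and 1.74 over all listed genes. The 1190 SNPs without B6 counts became 675 at 50 counts and 589 with spaced SNPs. At a minimum of 10 counts, 59 SNPs lacked B6 in E15.10 alone. Genes in stretches numbered 127 to 170. The cause of each shift was not tested. No paired analysis was possible because each group had 1 library.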
